A study of Ziziphus jujuba with 15 samples.

Results

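The 180 genes described here were well expressed in leaves of the jujube (Ziziphus jujuba) cultivar ‘HS’. From 0 to 7 d of heat stress each stayed within a 1.6-fold range. Inside that range some genes still differed between heated and unheated leaves. The 180 genes were chosen by their own measured values. A gene was selected on an annotated ID, an FPKM of 50 or more in each of 15 libraries, a highest FPKM at most 1.6 times its lowest over the 15 libraries, and a mean FPKM below 700 at 0 d. FPKM is the number of sequenced fragments corrected for transcript length and library size, so levels can be compared between genes. The deposited values cover 32876 genes, and 29293 of them carry an annotated ID. Of these 946 passed both limits on the level, and 180 of the 946 (19.0%) also passed the limit of 1.6 and are called heat-stable genes below. Low spread and level chose these genes, so their values are descriptions and carry no test.

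Poly(A) RNA of seedling leaves was sequenced at 0, 1, 3, 5 and 7 d of heat stress, with 3 libraries per time point, lettered a, b and c. The study's text describes 0 to 5 d only, and the libraries of 7 d are known from their labels. The leaves of 1, 3, 5 and 7 d came from heated plants and those of 0 d are the control; all belong to ‘HS’ (cultivar HS-Haoqing1), which the study describes as heat sensitive, and the plants had been rooted from cuttings. The labels say that replicates were pooled after extraction, while the study's methods describe separate replicates, so whether the letters are separate plants cannot be told and the spread between letters may be partly technical. Low FPKM values move in steps that give each library's relative depth, and these depths lay between 0.902 and 1.31 times that of replicate a at 0 d, and absolute depth is unknown from FPKM alone. As a check of the tissue, the 12 genes of the study's list of light-harvesting antenna proteins had mean FPKM of 15.6 to 2880 at 0 d.

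Genes of steady transcript level serve as internal references when the level of other genes is measured by quantitative PCR. Heat stress induces chaperones, which keep proteins folded, and a large share of a leaf's transcripts belongs to photosynthesis, whose genes can shift under stress, so a reference gene has to be checked in the tissue and treatment it is used for. In RNA of whole leaves, fewer cells of a type and less RNA per cell cannot be told apart. FPKM is also a share of each library, and a steady FPKM means a steady share and not a steady number of molecules per cell.

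The limit of 1.6 did not fall in a gap of the distribution. Among the 946 genes, 1 had a ratio of highest over lowest FPKM of 1.2 or less, 10 had one between 1.2 and 1.3, 30 between 1.3 and 1.4, 56 between 1.4 and 1.5, and 83 between 1.5 and 1.6. A further 298 genes lay between 1.6 and 2, and 11 lay above 10. The heat-stable genes closest to the limit were gene4031 with a ratio of 1.598, gene2268 with 1.597 and gene6537 with 1.597. Just outside it were gene18425 with 1.601, gene550 with 1.603 and gene3753 with 1.606. At the limit on the level, gene478 was inside with a lowest FPKM of 50.2, and gene3473 was outside with 49.97. At the upper limit, 2 annotated genes with a mean of 700 or more at 0 d, gene19191 and gene2324, met the limit of 1.6 and were left out. Likewise 2 newly discovered genes met all the limits on values and were left out for their ID.

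**Figure D1:**
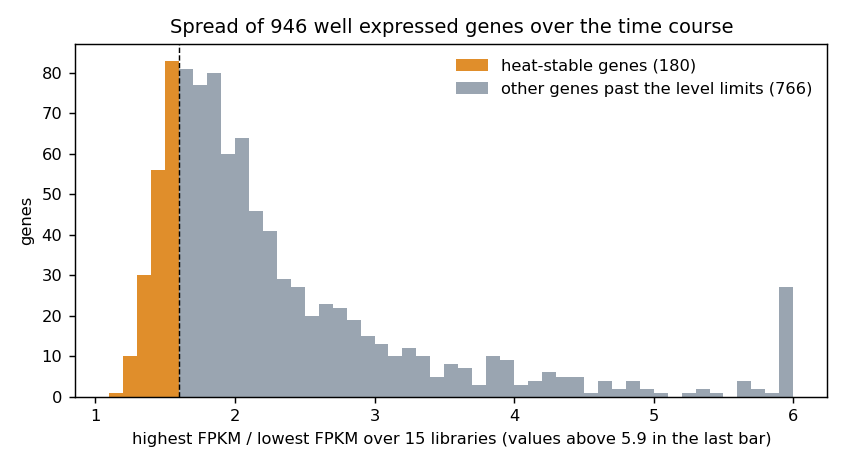
Number of genes (vertical axis) by the ratio of highest to lowest FPKM over 15 libraries (horizontal axis, linear) for the 946 genes past the limits on the level. The 180 heat-stable genes (orange) end at the dashed line at 1.6, near the peak of the distribution, and the 766 other genes (grey) have a median ratio of 2.15.

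The heat-stable genes were mostly of moderate level. Their mean FPKM over the 15 libraries ran from 60.2 to 619, with a median of 93.1, against 65.2 to 1714 and a median of 133 in the 766 other genes. Of the 314 genes with a mean of 50 to 100 FPKM, 102 (32.5%) were heat-stable. The share was 15.3% of 404 genes between 100 and 200 FPKM, 8.19% of 171 genes between 200 and 400, and 3.51% of 57 genes above. The limit of 50 on the lowest value also bounds how far a gene near that limit can fall, so the share at low levels is partly set by the rule. Together the 180 genes took 3.61% to 4.0% of the summed FPKM of a library.

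Among the heat-stable genes, 2 could be paired with a protein name and 4 more with a term, through tables in which the study annotated its own lists. The remaining 174 carry only an ID. Those lists name 2516 genes of the table, 168 of them past the limits on the level, and 5 of the 168 were heat-stable, with 1 more that carries only a protein name. The lists were built from genes that the study called changed in at least 1 comparison of either cultivar, so steady genes are mostly absent from them and the 6 are no sample of what the 180 do.

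gene10776 is LOC107418413, annotated as EXECUTER 1, a chloroplast protein that in Arabidopsis passes a singlet oxygen signal from the plastid to the nucleus. Its FPKM was 87.9, 90.2 and 91.1 at 0 d in replicates a, b and c, 64.3, 65.4 and 71.9 at 1 d, 64.8, 71.2 and 68.2 at 3 d, then 82.2, 63.3 and 59.2 at 5 d. The 7 d libraries had 76.5, 62.1 and 65.2. All 12 libraries under heat lay below the 3 libraries at 0 d, also under the 2 other scalings between libraries that were tried (median-of-ratios factors and quantile normalization). The mean of the heated leaves was 67.9 FPKM, against 89.8 FPKM at 0 d, a fold of 0.756. This gene is therefore steady only in the sense of the limit of 1.6 on the deposited values. Its ratio of highest over lowest was 1.549 after quantile normalization but 1.71, over the limit, under median-of-ratios factors.

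gene12224 is LOC107419977, annotated as chlorophyll a-b binding protein 4, a protein of the antenna that gathers light for photosystem I. Its FPKM was 96.7, 87.1 and 91.7 at 0 d, 95.6, 98.8 and 97.2 at 1 d, 77.4, 63.1 and 64.5 at 3 d, then 84.3, 85.9 and 91.4 at 5 d. At 7 d it stood at 96.6, 93.7 and 76.9. The 3 libraries of 3 d were below all 3 of 0 d, and those of every other time point overlapped 0 d. Its mean was 68.3 ± 7.9 FPKM at 3 d, against 91.8 ± 4.77 FPKM at 0 d (SD, n = 3 each).

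The other 11 genes of the antenna list were not heat-stable. Their ratios of highest over lowest FPKM ran from 2.17 to 14.6, against 1.57 for gene12224 as deposited. The ratio of gene12224 was 1.81 under median-of-ratios factors and 1.653 after quantile normalization, over the limit of 1.6 in both. Of the 12 genes on the list, 2 were past the limma thresholds as higher and 1 as lower at 1 d (adjusted p of 0.01 or less over all genes tested, with a fold of 2 or more). At 3 d it called 1 lower and none higher, and at 7 d 1 higher and 1 lower. At 5 d limma called 0 of 12. By the thresholds of adjusted p and fold, limma called 10.2%, 13.9%, 18.1% and 9.01% of all genes tested at 1, 3, 5 and 7 d. The looser threshold of an unadjusted limma p below 0.05 was reached by 10 genes of the list at 1 d, 6 higher and 4 lower. It was reached by 5 at 3 d (1 higher, 4 lower) and by 5 at 5 d (2 higher, 3 lower). After 7 d it was reached by 8 (6 higher, 2 lower). No share of all genes was taken at this looser threshold, so these counts have no background beside them. The study chose this list from its own changed genes, so its count is not independent evidence.

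gene21849 carries the term negative regulation of catalytic activity, which covers proteins that slow an enzyme. At a mean of 259 FPKM it was the most abundant of the 6. Its FPKM was 328, 334 and 304 at 0 d, 254, 221 and 220 at 1 d, 228, 239 and 235 at 3 d, then 252, 259 and 273 at 5 d. On day 7 the letters gave 276, 235 and 221. As with gene10776, all 12 heated libraries lay below all 3 at 0 d, and they did so under both other scalings. The mean of the heated leaves was 243 FPKM, against 322 FPKM at 0 d.

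gene13249 is listed under nicotinate and nicotinamide metabolism, the route to the electron carrier NAD. Its FPKM was 163, 118 and 128 at 0 d, 155, 151 and 158 at 1 d, 118, 122 and 117 at 3 d, then 167, 130 and 130 at 5 d. After 7 d the values were 138, 110 and 106. Replicate a was the highest at 0, 5 and 7 d, and at each of these time points the distance from a to b and c was larger than the distance between b and c.

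gene5171 is listed under biosynthesis of myo-inositol hexakisphosphate, the phosphate store also known as phytate. Its FPKM was 76.8, 57.3 and 57.1 at 0 d, 82.3, 65.5 and 80.5 at 1 d, 81.1, 58.9 and 52.0 at 3 d, then 65.9, 52.6 and 55.5 at 5 d. The 7 d libraries had 74.0, 71.6 and 65.8. Replicate a was the highest at every time point. Differences between the letters took 42.4% of its spread (sum of squares of log2 FPKM), against 37.0% between time points.

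gene4028 is listed under nucleosome assembly, the wrapping of DNA around histones. Its FPKM was 65.3, 79.8 and 76.9 at 0 d, 54.7, 78.9 and 77 at 1 d, 61.8, 62.6 and 60.6 at 3 d, then 54.7, 55.9 and 59.8 at 5 d. At 7 d it stood at 50.7, 65.0 and 61.6. At 3, 5 and 7 d all 3 libraries lay below all 3 at 0 d. At 1 d replicate a was far below b and c, and the groups overlapped.

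**Figure D2:**
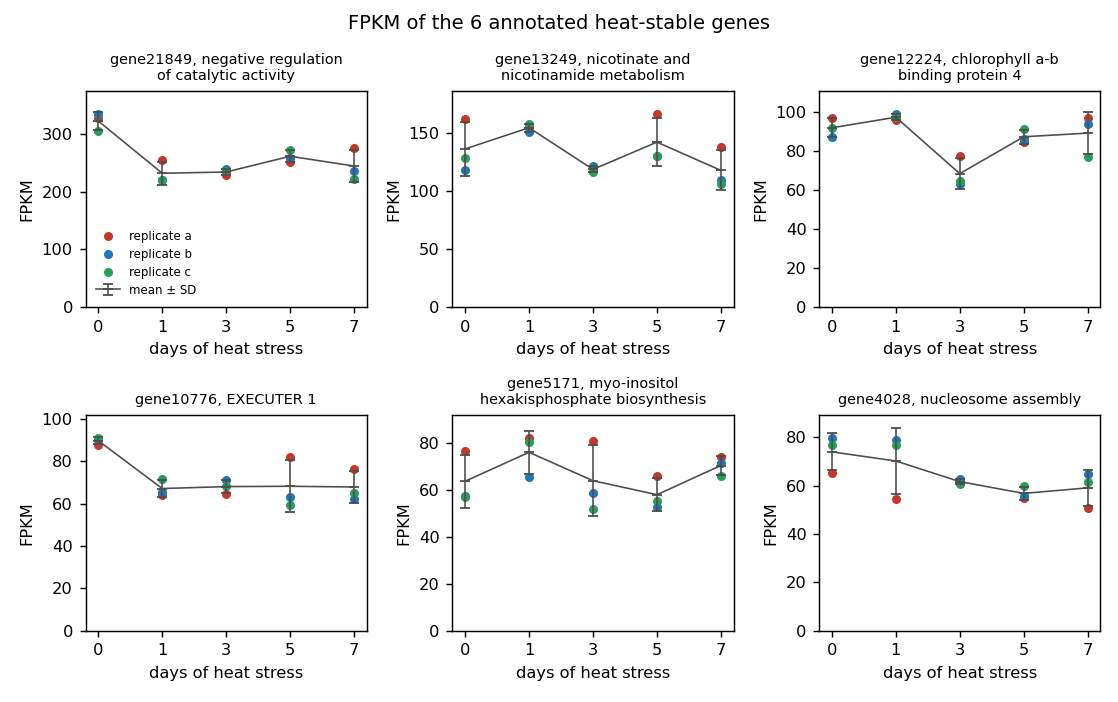
FPKM (vertical axes, from 0) of the 6 annotated heat-stable genes at 0, 1, 3, 5 and 7 d of heat stress, with a point for each replicate and a line through the mean ± SD (n = 3). The heated libraries of gene10776 and gene21849 all lie below those of 0 d, and replicate a stands above b and c in gene5171 at every time point.

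Among the genes with only an ID, the steadiest was gene18064 with a ratio of 1.195. Its FPKM was 161, 166 and 161 at 0 d, 151, 143 and 156 at 1 d, 171, 148 and 145 at 3 d, then 161, 157 and 170 at 5 d. On day 7 the letters gave 163, 149 and 144. Libraries of every time point lay within the range set by replicate b at 1 d and replicate a at 3 d. gene5436 and gene15622 followed with a ratio of 1.219 each, at mean levels of 98.0 and 121 FPKM. In all 11 heat-stable genes had a ratio of 1.3 or less.

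The most abundant heat-stable gene was gene6428. Its FPKM was 463, 711 and 632 at 0 d, 567, 511 and 456 at 1 d, 578, 678 and 649 at 3 d, then 694, 691 and 700 at 5 d. After 7 d the values were 659, 665 and 626. Replicate a at 0 d was far below b and c, so that the range at 0 d held nearly the whole range of the gene. gene27029 averaged 530 FPKM and gene18006 averaged 381 FPKM over the 15 libraries. At the low end, gene1534, gene23518 and gene478 averaged 60.2, 60.5 and 61.2 FPKM.

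A limit of 1.6 leaves room for a difference between heated and control leaves. In 7 heat-stable genes all 12 heated libraries lay above the 3 libraries at 0 d, with folds of the means of 1.17 to 1.3. They make up 3.89% of the 180, beside 15.3% of all genes tested. In 18 (10.0%, beside 12.8%) all 12 lay below, with folds of 0.721 to 0.835. The other 155 overlapped. Among the 766 other genes past the level limits 147 lay wholly above and 179 wholly below. These counts depend on the scaling. Median-of-ratios factors gave 1 heat-stable gene above (0.556%, beside 13.6% of all genes tested) and 26 below (14.4%, beside 15.3%). Quantile normalization gave 17 above (9.44%, beside 14.6%) and 11 below (6.11%, beside 14.04%).

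The largest fold above 1 was that of gene13366, with FPKM of 61.9, 64.2 and 62.6 at 0 d, 76.1, 74.8 and 72.2 at 1 d, 78.6, 91.8 and 93.1 at 3 d, then 92.3, 89.6 and 93.4 at 5 d. The 7 d libraries had 77, 73.0 and 72.3. Its time point means were highest at 3 and 5 d and no heated library reached down to 0 d. gene18143 had means of 90.8 FPKM at 1 d, 83.5 FPKM at 3 d, 91.6 FPKM at 5 d and 88.6 FPKM at 7 d, against 68.4 FPKM at 0 d. In gene18143 the heated libraries were separate from 0 d as deposited and after quantile normalization but overlapped 0 d under median-of-ratios factors, while gene13366 stayed separate under both.

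The lowest fold was that of gene15891, with FPKM of 140, 146 and 152 at 0 d, 106, 105 and 107 at 1 d, 99.4, 97.6 and 109 at 3 d, then 106, 109 and 110 at 5 d. At 7 d it stood at 105, 99.5 and 106. All heated libraries lay between 97.6 and 110 FPKM, under the lowest library at 0 d. gene24350 had means of 68.1 FPKM at 1 d, 68.1 FPKM at 3 d, 69.7 FPKM at 5 d and 72.0 FPKM at 7 d, against 94.0 FPKM at 0 d. Both stayed wholly below 0 d under the other scalings.

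**Figure D3:**
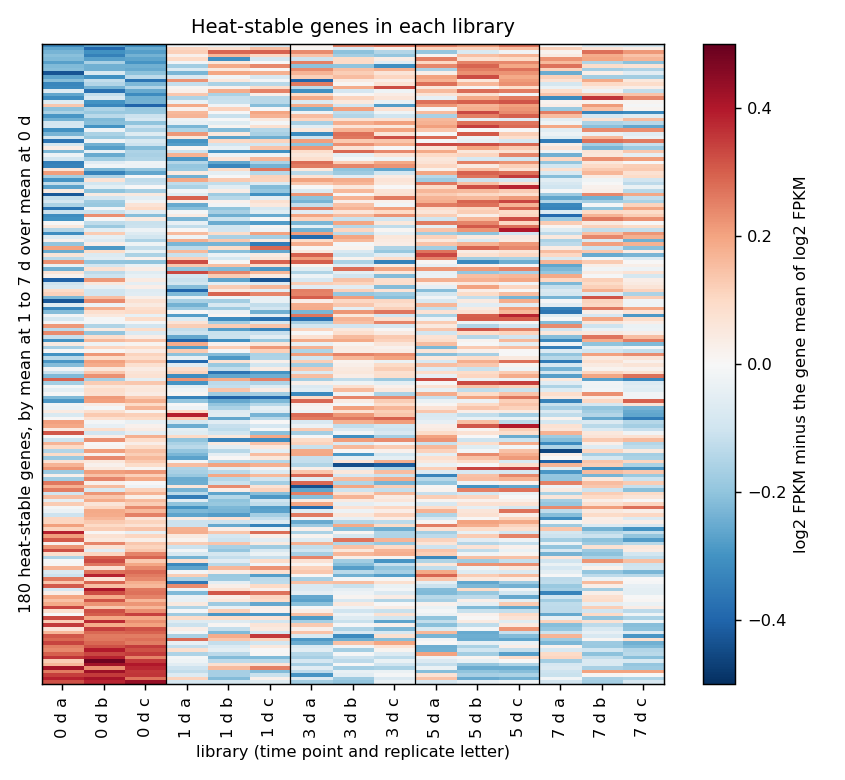
Log2 FPKM minus the gene's mean log2 FPKM (color) of 180 heat-stable genes (rows) in 15 libraries (columns), with rows ordered by the mean of the heated leaves over the mean at 0 d. The blocks at 0 d at the top and bottom edges come from this order, and between them single replicate a libraries stand out from b and c of the same time point.

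At the single time points, 21 heat-stable genes had all 3 libraries of 1 d above all 3 of 0 d (11.7%), beside 27.1% of all 19925 genes tested, and 48 had them below (26.7%), beside 24.3%. At 3 d the counts were 31 above (17.2%), beside 31.8%, and 36 below (20.0%), beside 21.7%. At 5 d they were 50 above (27.8%), beside 33.6%, and 31 below (17.2%), beside 25%. At 7 d they were 21 above (11.7%), beside 24.8%, and 47 below (26.1%), beside 22.2%. The shares above 0 d were under the background at every time point. Those below 0 d were a little over it at 1 and 7 d and under it at 3 and 5 d. The balance turned with the scaling. Under median-of-ratios factors 10 heat-stable genes lay above at 3 d (5.56%, beside 27.0% of all genes tested) and 62 below (34.4%, beside 26.9%). After quantile normalization 46 lay above at 1 d (25.6%, beside 27.3%) and 26 below (14.4%, beside 24.5%). The rule used these same values, so nothing is read from the differences.

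By the thresholds of adjusted p and fold, limma called 10.2% of the 19925 genes at 1 d and 13.9% by 3 d. The share was 18.1% after 5 d and 9.01% after 7 d. A heat-stable gene cannot be called, because its limit of 1.6 lies under the fold of 2. Of the 766 other genes 202 (26.4%) were called at 1 or more time points, beside 23.2% of all genes tested. These calls depend on which replicates are kept. Without replicate b only 60 genes were called at 1 d and 52 after 7 d, and without replicate c 91 and 24. Without replicate a the counts rose, to 2799 and 2366. With all 3 letters the counts were 2027 and 1796.

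The median log2 fold change of the heat-stable genes was −0.10 at 1 d and 0.01 after 3 d, then 0.05 after 5 d and −0.05 after 7 d, beside medians of 0.04, 0.12, 0.10 and 0.04 over all genes tested. The sign at 1 and 7 d turned under quantile normalization, with 0.03 at both, and that at 3 and 5 d turned under median-of-ratios factors, with −0.12 and −0.07. Median-of-ratios factors moved the median of all genes at 3 d by more than 0.1, to 0.0028. They also left 41.4% of the genes called at 3 d higher, against 54.1% as deposited. No direction is therefore given for the heat-stable genes as a group.

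The time point of the highest and lowest mean also depended on the scaling. Counted by the means of log2 FPKM as deposited, 68 of the 180 genes were highest at 5 d (37.8%), against 28.2% of the other genes, and 49 at 0 d. The lowest mean fell at 1 d in 67 genes (37.2%), against 25.3% of the other genes, and at 7 d in 39. Under median-of-ratios factors 81 genes were highest at 0 d and 38 at 5 d, and after quantile normalization 44 were highest at 1 d and 39 at 5 d. The most frequent pairing as deposited was a highest mean at 3 d with a lowest at 1 d, in 25 genes, and a highest at 5 d was paired with a lowest at 0 d in 24 and with a lowest at 1 d in 24. The share of the library's summed FPKM that the 180 genes held was by the deposited FPKM highest at 5 d and lowest at 1 d, with 3.80 ± 0.0817% at 0 d, 3.65 ± 0.0349% after 1 d, 3.88 ± 0.0278% after 3 d, 3.99 ± 0.0114% after 5 d and 3.72 ± 0.0977% after 7 d (SD, n = 3 each). After quantile normalization it was highest at 3 d, with 3.86 ± 0.0171%, and lowest at 0 d, with 3.72 ± 0.0312%. The highest over the lowest time point mean was 1.27 at the median and 1.48 at most, and in 46 genes it was 1.2 or less.

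The spread of each gene was divided into a part between time points, a part between replicate letters and the rest. Time points took a median of 57.2% of the sum of squares of log2 FPKM in the heat-stable genes, against 73.9% in the other 766. Letters took 6.66%, against 3.58%. The rest took 29.4%, against 19.3%. In 117 heat-stable genes the time points took more than all else together, and in 11 the letters took more than the time points. Without replicate a the median part between time points was 92.8%, and it was 57.7% without b and 57.3% without c. The parts are not corrected for the numbers of time points and letters, so their sizes cannot be compared directly. They describe genes selected on low spread, and the limit of 1.6 bounds the spread between time points and within them alike.

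Replicate a stood apart from b and c. Over the 180 genes, the median difference between b and c was 3.32% to 4.62% at the 5 time points. Between a and either of the others it was 8.79% to 12.7%. At 0 d, replicate a was the farthest of the 3 in 118 of 180 genes (65.6%), and it was so in 93 genes after 1 d, in 128 after 3 d, in 113 after 5 d and in 126 after 7 d. Over all genes tested, b and c correlated at 0.966 to 0.969 across genes, and a with either at 0.906 to 0.946, where genes are not independent replicates. What b and c share beyond what either shares with a was not tested.

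**Figure D4:**
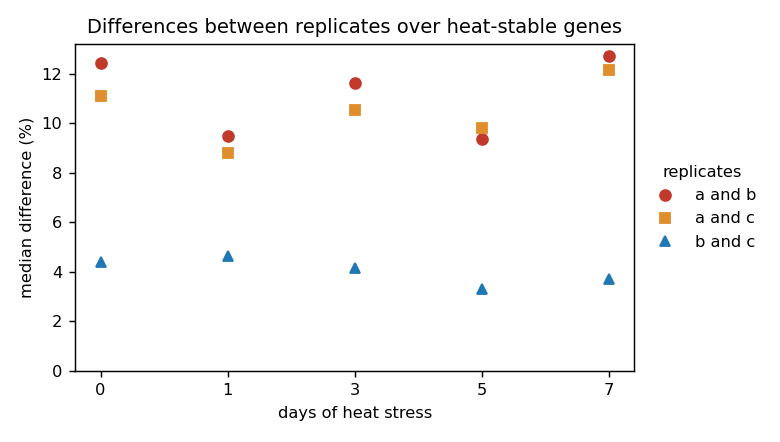
Median difference in FPKM between replicates of a time point over the 180 heat-stable genes (vertical axis, percent, from 0) at 0, 1, 3, 5 and 7 d of heat stress. The pair of b and c (triangles) lies between 3.32% and 4.62%, and both pairs with a (circles and squares) lie between 8.79% and 12.7%.

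The lowest value of a gene came from a replicate a in 87 of the 180 genes, from b in 43 and from c in 50. The highest values were spread more evenly, with 57 in a, 68 in b and 55 in c. Replicate a at 7 d held the lowest value of 26 genes and the highest of 3. Replicate b at 0 d held the highest value of 29 genes, and replicate c at 5 d that of 26. In 8 genes both extremes came from the same time point. If the rule is applied without replicate a it finds 367 genes, and 216 without b or 215 without c. Leaving out replicate a at 0 d alone gave 246 genes, the most among the 15 libraries, and leaving out replicate c at 3 d or replicate b at 7 d gave the fewest, 183 each. Fewer libraries cannot widen a gene's range, so a rise in these counts follows from the rule.

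**Figure D5:**
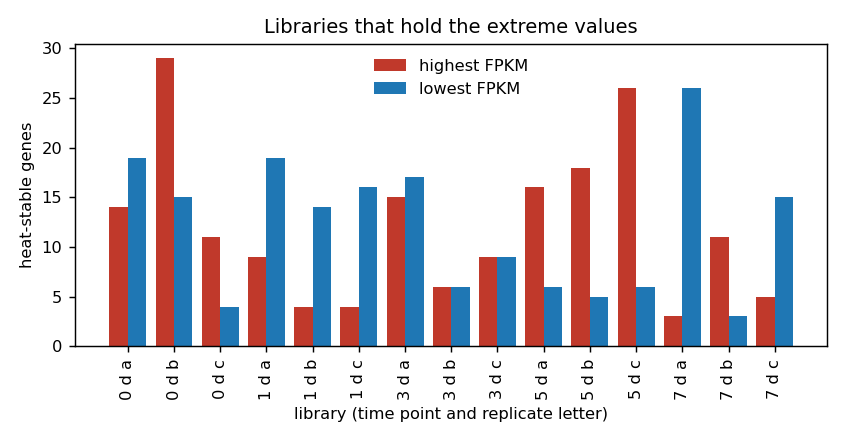
Number of heat-stable genes (vertical axis, from 0) whose highest (red) or lowest (blue) FPKM of the 15 libraries lies in each library (horizontal axis). Replicate a at 7 d holds the lowest value of 26 genes, and replicate b at 0 d and replicate c at 5 d the highest of 29 and 26.

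Which genes count as heat-stable also depends on the scaling between libraries. Median-of-ratios factors gave 181 genes and quantile normalization 210, close to the 180 as deposited. Of the 180, 136 were also found under the first (75.6%), 161 under the second (89.4%) and 126 under both (70.0%).

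The families from which reference genes for quantitative PCR in plants are usually drawn could be searched only among genes with a protein name in the study's tables. Of 11 families 4 had a gene there, with 11 genes in all, and 0 of the 11 were heat-stable. Only 2 of the 11 genes passed the level limits, and the others could not be heat-stable whatever their spread. The count of 0 is therefore mostly set by the rule. The 7 families with no name there, actin and elongation factor 1-alpha among them, were not analysed here. gene10526, cytosolic glyceraldehyde-3-phosphate dehydrogenase, an enzyme of glycolysis often used as a reference, ran from 442 to 1244 FPKM, a ratio of 2.82. gene12033, its chloroplast relative GAPB, ran from 305 to 928 FPKM, a ratio of 3.04. gene1004, a tubulin beta chain of the cytoskeleton, had a ratio of 3.12 and passed the level limits. gene22795, a ubiquitin-conjugating enzyme, had a ratio of 14.4. The lowest ratio of the 11 was that of gene11210, the chloroplast cis-trans isomerase CYP26-2, with 1.73 at a mean of 31.4 FPKM. As these names come from lists of changed genes, the families' steadier members may not be among them.

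Of 398 genes in 11 lists of leaf and housekeeping functions drawn from the study's enrichment tables, 37 passed the level limits and 1, gene12224, was heat-stable. The lists of ribosome, proteasome, spliceosome and oxidative phosphorylation genes, which serve every cell, held 6, 1, 0 and 4 genes past the level limits and no heat-stable gene. The list for response to heat held 40 genes, and limma called 9 of them higher at 1 d, 17 after 3 d, 25 after 5 d and 10 after 7 d. It called 3 lower at each of 1, 3 and 5 d and 2 after 7 d. Of all 19925 genes tested, it called 895, 1501, 1850 and 824 higher at these time points in turn. The counts called lower were 1132, 1274, 1751 and 972. The study drew these lists from its own changed genes, so their counts are not independent evidence.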

How the data were processed

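Leaf RNA of the cultivar ‘HS’ was analysed in 15 libraries, 3 at each of 5 time points, grouped by their labels, and no column of per-sample values was left unused. The authors cleaned the reads, aligned them with Bowtie 2 and TopHat 2 to a reference genome of jujube and built transcripts in Cufflinks. The deposited unit is FPKM, given for every gene in every library. Per the labels, Trimmomatic 0.36 and FastQC were used. The genome build is not given in the sources used here, and the labels and the methods name different extraction kits and instruments. FPKM holds no counts, so the number of fragments behind a value is not given and its precision was taken from the spread between replicates. The study reports clean reads per library for 0 to 5 d, and these were not used here.

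Heat-stable genes were found by the rule in the report. The members and lists were chosen with earlier results of these data known. Genes named in the text were those with an annotation, those highest and lowest in mean FPKM, those with the smallest and largest ratio and those nearest to the limit, and those with the largest and smallest fold of the heated mean over 0 d; of genes with only an ID, at most a pair was printed for each direction of the fold, and the highest genes of each reference family were taken from protein names. Each heated time point was set against 0 d with limma 3.58.1 (R 4.3.3, eBayes with an intensity trend) on log2(FPKM + 1), a scale that understates changes of low genes. The fit had time point as its only term and took in 19925 genes that reached an FPKM of 1 in 3 libraries or more. A call needed a fold of at least 2 and a p, adjusted after Benjamini and Hochberg, of at most 0.01. The fit was checked on simulated data with independent noise in each library. The closeness of replicates b and c was not simulated, so the check does not cover its effect on the calls. Python 3.11.15, numpy 2.4.6, pandas 2.3.3 and matplotlib 3.10.9 were used for the rest. Alternatives were a pseudocount of 0.1, no filter, both other scalings, no trend, replicate blocks, other limits of the rule, and fits without a letter or a library. Protein names and terms came from the study's annotation tables, some lists of which are shortened. No sequence is shown, as none could be matched to the IDs.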

Additional observations from a re-analysis of the deposited data

How the results depend on the processing

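The number of heat-stable genes followed the limits of the rule: 612 with time point means in place of libraries, 97 with a ratio of 1.5 or less, 478 with 2 or less, 537 with a lowest FPKM of 25 or more and 50 with 100 or more. It was 225 over the 12 libraries of 0 to 5 d and 182 with no upper limit. Without 1 letter it ranged from 215 to 367, and without 1 library from 183 to 246. A gene's range cannot widen with fewer libraries, so these counts and the 225 could hardly fall. All heat-stable genes stayed in each of them. The genes called by limma ranged, without 1 letter, from 60 to 2799 at 1 d, 382 to 3935 at 3 d, 971 to 4501 at 5 d and 24 to 2366 at 7 d, highest without a. The counts under every other alternative stayed within 1.5 times.

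Whether a letter links libraries across time points is not stated. Correlations of same-letter deviations between time points ran from −0.101 to 0.121, with medians of 0.015, 0.006 and 0.028 for a, b and c. Those of different letters ran from −0.104 to 0.085, with a median of −0.006. As both were small, the letters were not taken to pair the libraries. However, 9 of 15 libraries lay closest to their own letter, which is more than unlinked letters would give on average. With the letter as a replicate block limma called 1986, 2751, 3525 and 1764 genes at 1, 3, 5 and 7 d, against 2027, 2775, 3601 and 1796 without it.

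The median log2 fold change of the heat-stable genes was −0.1246, −0.0701 and −0.0788 at 3, 5 and 7 d under median-of-ratios scaling, and 0.0337, 0.073 and 0.0306 at 1, 3 and 7 d after quantile normalization. Without 1 letter it ranged from −0.1109 to −0.0681 at 1 d, −0.0026 to 0.0231 at 3 d, 0.0122 to 0.059 at 5 d and −0.0679 to −0.0435 at 7 d.

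The following were chosen after seeing the data. Heat-stable genes wholly above 0 d under median-of-ratios scaling were 10 at 3 d (5.56%, beside 27.0% of all genes tested) and 29 at 5 d (16.1%, beside 28.9%), and wholly below 62 at 3 d (34.4%, beside 26.9%) and 53 at 5 d (29.4%, beside 29.1%). After quantile normalization 46 lay above at 1 d (25.6%, beside 27.3%), 47 above at 3 d (26.1%, beside 28.8%), 26 below at 1 d (14.4%, beside 24.5%) and 28 below at 7 d (15.6%, beside 23.3%). The median part of the spread between time points ranged from 57.3% to 92.8% without 1 letter, and that between letters from 0.959% to 6.05%. The cause of these shifts was not tested. Of the 24 named heat-stable genes, the ratio of 14 moved by more than the replicate SD under median-of-ratios scaling and of 3 after quantile normalization, and 4 of the 24 had a higher mean at 3 d than at 0 d under median-of-ratios scaling, against 9 as deposited.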
